A study of Homo sapiens with 8 samples.

Results

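The genes described here are 10 members of 2 receptor tyrosine kinase systems, RET with its coreceptors GFRA1, GFRA2 and GFRA3 and its ligands GDNF, NRTN and ARTN, and ALK with the growth factors PTN and MDK. They were taken by gene symbol, with every probe of each symbol kept, which gave 23 of the 47322 probes and 10 of the 31426 symbols of the array. The measurements were Illumina bead array signals of total RNA from 2 established human lines derived from the neuroblastoma line SK-N-SH, namely SH-SY5Y, whose cells are neuroblastic, and SH-EP2, whose cells resemble epithelium. Each line carried a lentivirus with either a scrambled shRNA (control) or an shRNA against TRPM7, an ion channel with a kinase domain, and each of these 4 groups was measured on 2 arrays. The comparisons asked what knockdown of TRPM7 did to gene expression in each line. All cells, controls included, were stably transduced populations selected with puromycin, and a single TRPM7 shRNA was used on the arrays. The methods state duplicate preparation and analysis of samples, but the sources do not say whether the 2 replicates of a group were separate cultures. The p-values therefore measure only the spread between these samples, which may be technical. The study's methods gave the lines different media while the labels gave the same medium for both, so that line and medium cannot be told apart.

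RET is the signalling subunit of a receptor for ligands of the GDNF family. A ligand first binds a GFRA coreceptor, which is anchored to the outer membrane and cannot signal through the kinase on its own, and the complex then brings RET molecules together. GDNF prefers GFRA1, NRTN (neurturin) prefers GFRA2 and ARTN (artemin) prefers GFRA3. ALK is a kinase that is mutated or amplified in part of neuroblastomas, and PTN (pleiotrophin) and MDK (midkine) are heparin-binding growth factors that have been described as its ligands, while they also bind PTPRZ1 and syndecans. Both kinases belong to the developing sympathetic nervous system, from which neuroblastoma arises.

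Levels are given as log2 of the normalized signal, and a probe was called detected on an array where its detection p, taken from the deposited table, was under 0.05. The median signal per array ranged from 104.7 to 119.9 before normalization and 40.8% to 44.2% of all probes were detected. Replicate arrays correlated with r between 0.981 and 0.985 over all probes. The probe for TRPM7 itself was detected on 0 of the 8 arrays (detection p from 0.0753 to 0.201), so that the array did not check the knockdown. The study's methods describe a separate measurement of TRPM7 mRNA in both lines by quantitative PCR. Noradrenergic and mesenchymal markers set the lines apart, and no list of epithelial markers was examined. Of 13 noradrenergic neuroblastoma markers 12 were lower in SH-EP2 controls than in SH-SY5Y controls, and of 12 mesenchymal markers 10 were higher and 2 lower. Over all probes, 26.2% passed an adjusted p under 0.05 in limma between these controls, and 14.0% passed and were lower in SH-EP2. Of 8 Schwann cell and glial markers, 5 were detected on no array, among them SOX10.

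The start regions of RET, ALK and PTN are shown, the first 2 as the kinases whose levels lay lower upon knockdown in SH-SY5Y and the last as a growth factor detected in both lines. All have an entry in the promoter table (RefSeq, GRCh38.p14), which held 8 of the 10 members. Each run covers the 250 bases before and the 50 bases from the gene's outermost annotated start, 5′ to 3′ on the gene's strand. Capitals mark the GC box GGGCGG or its reverse complement CCGCCC, and CAGCTG, a form of the E-box motif bound by basic helix-loop-helix factors. CAGCTG reads the same on both strands, and other forms of the E-box were not searched. The regions lie at chr10:43076819-43077118 (plus strand) for RET, chr2:29921537-29921836 (minus strand) for ALK and chr7:137343684-137343983 (minus strand) for PTN.
RET: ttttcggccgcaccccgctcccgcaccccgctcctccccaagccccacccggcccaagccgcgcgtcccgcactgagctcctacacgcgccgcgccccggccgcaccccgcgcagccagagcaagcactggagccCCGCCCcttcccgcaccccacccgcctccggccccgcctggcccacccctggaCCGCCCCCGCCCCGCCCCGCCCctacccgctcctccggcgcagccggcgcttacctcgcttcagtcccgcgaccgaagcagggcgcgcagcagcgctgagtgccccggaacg
ALK: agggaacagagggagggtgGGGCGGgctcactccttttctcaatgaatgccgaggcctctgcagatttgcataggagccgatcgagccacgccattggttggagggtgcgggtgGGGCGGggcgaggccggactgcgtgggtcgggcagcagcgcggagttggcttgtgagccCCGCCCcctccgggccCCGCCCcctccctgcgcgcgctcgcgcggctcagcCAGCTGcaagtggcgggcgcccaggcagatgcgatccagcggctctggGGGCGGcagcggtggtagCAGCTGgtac
PTN: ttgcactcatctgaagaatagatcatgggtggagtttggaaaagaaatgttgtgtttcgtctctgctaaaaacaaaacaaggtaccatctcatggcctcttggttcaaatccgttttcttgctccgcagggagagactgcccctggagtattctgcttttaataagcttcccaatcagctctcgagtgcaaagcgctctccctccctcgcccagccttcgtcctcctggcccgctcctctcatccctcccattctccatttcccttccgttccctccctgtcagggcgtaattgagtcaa
The RET region held 5 GC boxes, 0 CAGCTG E-boxes and 41 CpG dinucleotides. The ALK region held 5 GC boxes, 2 CAGCTG E-boxes and 28 CpG dinucleotides, and the PTN region 0 GC boxes, 0 CAGCTG E-boxes and 10 CpG dinucleotides. Of 35116 regions of this length in the table, 45.0% held a GC box and 17.9% a CAGCTG E-box, and the median CpG count was 14. Among the member regions not shown, that of NRTN held 6 GC boxes and 38 CpG dinucleotides. That of GFRA1 held 0 GC boxes and 9 CpG dinucleotides. These matches describe letters in these windows only, and binding was not measured.

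RET was the member with the strongest response. In SH-SY5Y cells all 3 of its probes fell upon TRPM7 knockdown, and in SH-EP2 cells RET was not detected with either shRNA. The probe ILMN_1655610 read 8.81 and 8.83 in SH-SY5Y controls, 6.0 and 5.92 in SH-SY5Y TRPM7 shRNA cells, 2.80 and 2.55 in SH-EP2 controls and 2.55 and 2.72 in SH-EP2 TRPM7 shRNA cells. Both SH-SY5Y knockdown arrays lay well below both controls and still above every SH-EP2 array, where the probe was undetected. In signals before normalization this was 598.7 and 465.9 against 184.8 and 187.9, with an estimated background of 98.3 to 110.3 on these 4 arrays. The log2 difference upon knockdown was -2.86 (SE 0.27, adjusted p = 1.3e-06, limma), a 7.27-fold lower level. Since the RNA came from bulk cultures, fewer RET-expressing cells and less RET RNA per cell cannot be told apart.

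The other RET probes gave the same picture at lower signal. ILMN_1706301 read 7.79 and 7.70 in SH-SY5Y controls against 4.97 and 4.93 after knockdown, a difference of -2.80 (SE 0.33, adjusted p = 2.91e-05, limma). ILMN_1666314 read 6.19 and 6.28 against 2.85 and 3.22, a difference of -3.21 (SE 0.46, adjusted p = 0.000287, limma). Of these last 2 arrays only the second was called detected. Among the log2 differences of all 47322 probes in SH-SY5Y, sorted from the most negative, the 3 RET probes took ranks 5, 8 and 3.

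**Figure D1:**
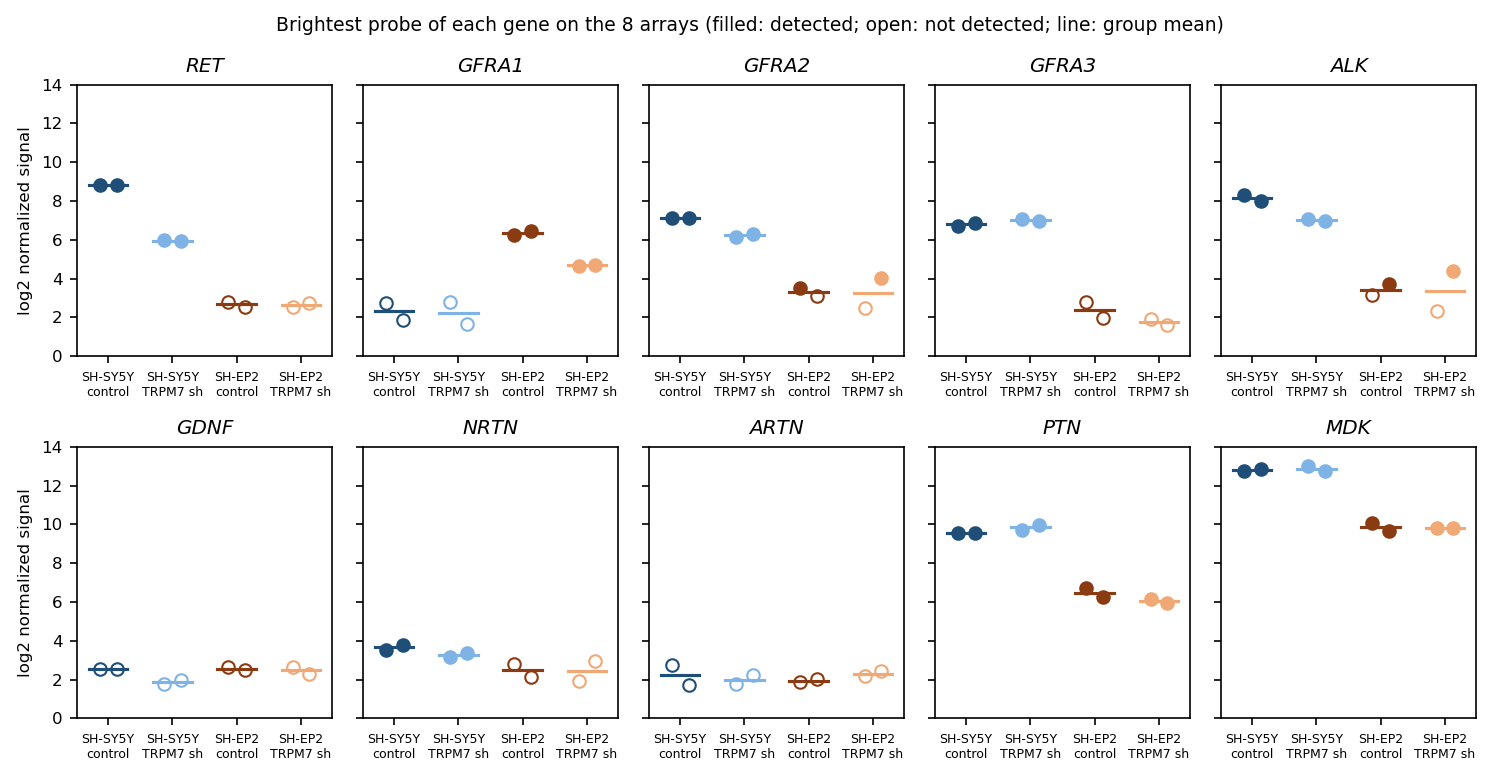
Log2 normalized signal of the brightest probe of each of the 10 genes on the 8 arrays, with a panel per gene, 4 groups on the x axis, filled points for detected and open points for undetected arrays, and a line at the group mean. RET dropped from a mean of 8.82 to 5.96 in SH-SY5Y upon TRPM7 knockdown, GFRA1 was detected on SH-EP2 arrays only, and GDNF and ARTN stayed undetected throughout.

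The fitted knockdown effect on RET differed between the lines. RET had no detected level in SH-EP2 to fall from, so the test cannot show whether its response depends on the line. The knockdown effect in SH-EP2 minus that in SH-SY5Y was 2.82 on the log2 scale for ILMN_1655610 (SE 0.38, adjusted p = 0.000199, limma), 2.62 for ILMN_1706301 (adjusted p = 0.0034) and 4.15 for ILMN_1666314 (adjusted p = 0.00111). In SH-EP2 the 3 fitted differences were -0.04, -0.17 and 0.94, all between undetected signals, so that they carry no fold, and a change of RET in that line was not detectable. Over all probes 1.40% were called in this test of the difference between lines (375 higher and 287 lower, or 182 and 309 with median scaling), and the 3 RET probes were the called ones of the 23.

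ALK, the other kinase, is read by a single probe, ILMN_1753135. It read 8.28 and 7.98 in SH-SY5Y controls, 7.08 and 6.96 in SH-SY5Y TRPM7 shRNA cells, 3.14 and 3.71 in SH-EP2 controls and 2.33 and 4.40 in SH-EP2 TRPM7 shRNA cells. Both SH-SY5Y knockdown arrays lay below both controls, whereas the SH-EP2 arrays overlapped and only the second array of each SH-EP2 group was detected. The difference in SH-SY5Y was -1.11 (SE 0.42, 95% interval -1.99 to -0.23), a 2.15-fold lower level, which did not pass the test over all probes (adjusted p = 0.266, limma). Fitting SH-SY5Y alone gave -1.09 with an adjusted p of 0.000201 (limma), and 7 of 18 alternative analyses called it, with adjusted p from 5.92e-06 to 0.749 over the alternatives. These 7 include an unplanned replicate block with crossed numbers in SH-SY5Y (adjusted p = 0.0276, limma). The distance between the 2 SH-EP2 knockdown arrays enters the spread shared by the 4 groups. Without SH-EP2 TRPM7 shRNA replicate 1 the adjusted p was 0.0149, and without SH-EP2 TRPM7 shRNA replicate 2 it was 0.0241 (limma).

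The 3 coreceptors differed in where they were detected. GFRA2, the coreceptor that prefers neurturin, read 7.12 and 7.11 in SH-SY5Y controls, 6.17 and 6.28 in SH-SY5Y TRPM7 shRNA cells, 3.52 and 3.09 in SH-EP2 controls and 2.49 and 4.0 in SH-EP2 TRPM7 shRNA cells. The SH-SY5Y groups did not overlap, and the difference was -0.89 (SE 0.37, 95% interval -1.66 to -0.12), 1.85-fold lower, with an adjusted p of 0.33 (limma). As for ALK, it was called when SH-SY5Y was fitted alone (-0.88, adjusted p = 0.0108, limma), and in 3 of 18 alternatives in all. GFRA3, which prefers artemin, went the other way within its error. It read 6.73 and 6.88 in SH-SY5Y controls and 7.08 and 6.95 after knockdown, a difference of 0.21 (95% interval -0.51 to 0.92, adjusted p = 0.901, limma), and it was undetected on all 4 SH-EP2 arrays.

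GFRA1, which prefers GDNF, was detected in the line that had no detectable RET. Its probe ILMN_2334359 read 6.26 and 6.46 in SH-EP2 controls and 4.66 and 4.70 in SH-EP2 TRPM7 shRNA cells, and it was undetected in SH-SY5Y, at 2.73 and 1.88 in controls and 2.81 and 1.64 after knockdown. Upon knockdown in SH-EP2 it fell 3.20-fold, a log2 difference of -1.68 (SE 0.45, 95% interval -2.62 to -0.74, adjusted p = 0.0469, limma). That call lay close to the threshold and was lost in 7 of 17 alternatives, 4 of them without 1 of the SH-EP2 arrays (adjusted p from 0.205 to 0.325). A second probe, ILMN_1725678, read 4.22 and 5.14 in SH-EP2 controls and 3.83 and 2.52 after knockdown, a difference of -1.50 that did not pass (adjusted p = 0.175, limma). The groups did not overlap on either probe, and the probe ILMN_2253805 was undetected on all 8 arrays. The effects on GFRA1 in the 2 lines were not shown to differ (-1.60, adjusted p = 0.351, limma).

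Of the ligands GDNF, NRTN and ARTN, only neurturin was detected. GDNF, on 3 probes, and ARTN, on 4 probes, were undetected on all 8 arrays, and so were 40.0% of all probes. NRTN was detected on the 4 SH-SY5Y arrays and on none of SH-EP2. It read 3.51 and 3.80 in SH-SY5Y controls and 3.16 and 3.36 after knockdown, close to the background, and the difference of -0.40 (95% interval -1.45 to 0.66, adjusted p = 0.857, limma) did not pass.

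PTN and MDK were detected in both lines. PTN read 9.56 and 9.55 in SH-SY5Y controls, 9.73 and 9.99 in SH-SY5Y TRPM7 shRNA cells, 6.71 and 6.27 in SH-EP2 controls and 6.18 and 5.93 in SH-EP2 TRPM7 shRNA cells. The knockdown arrays lay above the controls in SH-SY5Y and below them in SH-EP2, with differences of 0.30 (95% interval -0.02 to 0.62, adjusted p = 0.48) and -0.43 (95% interval -0.75 to -0.11, adjusted p = 0.177), neither of which passed in limma. The difference between these effects, -0.74, did not pass either (adjusted p = 0.127, limma).

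The MDK probe with the highest signal, ILMN_2349393, read 12.74 and 12.84 in SH-SY5Y controls, 13.01 and 12.76 in SH-SY5Y TRPM7 shRNA cells, 10.07 and 9.64 in SH-EP2 controls and 9.82 and 9.83 in SH-EP2 TRPM7 shRNA cells. The groups overlapped within each line. Its intervals were the narrowest among the members, with a knockdown difference of 0.09 in SH-SY5Y (95% interval -0.13 to 0.32) and -0.03 in SH-EP2 (95% interval -0.25 to 0.20). The other 4 MDK probes were close to the background in SH-EP2 and disagreed there, with differences of -0.72, -0.53, 0.67 and 1.08 and none called. The last, ILMN_1659142, was undetected on both SH-EP2 control arrays (2.26 and 2.04) and on 1 of the 2 knockdown arrays.

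**Figure D2:**
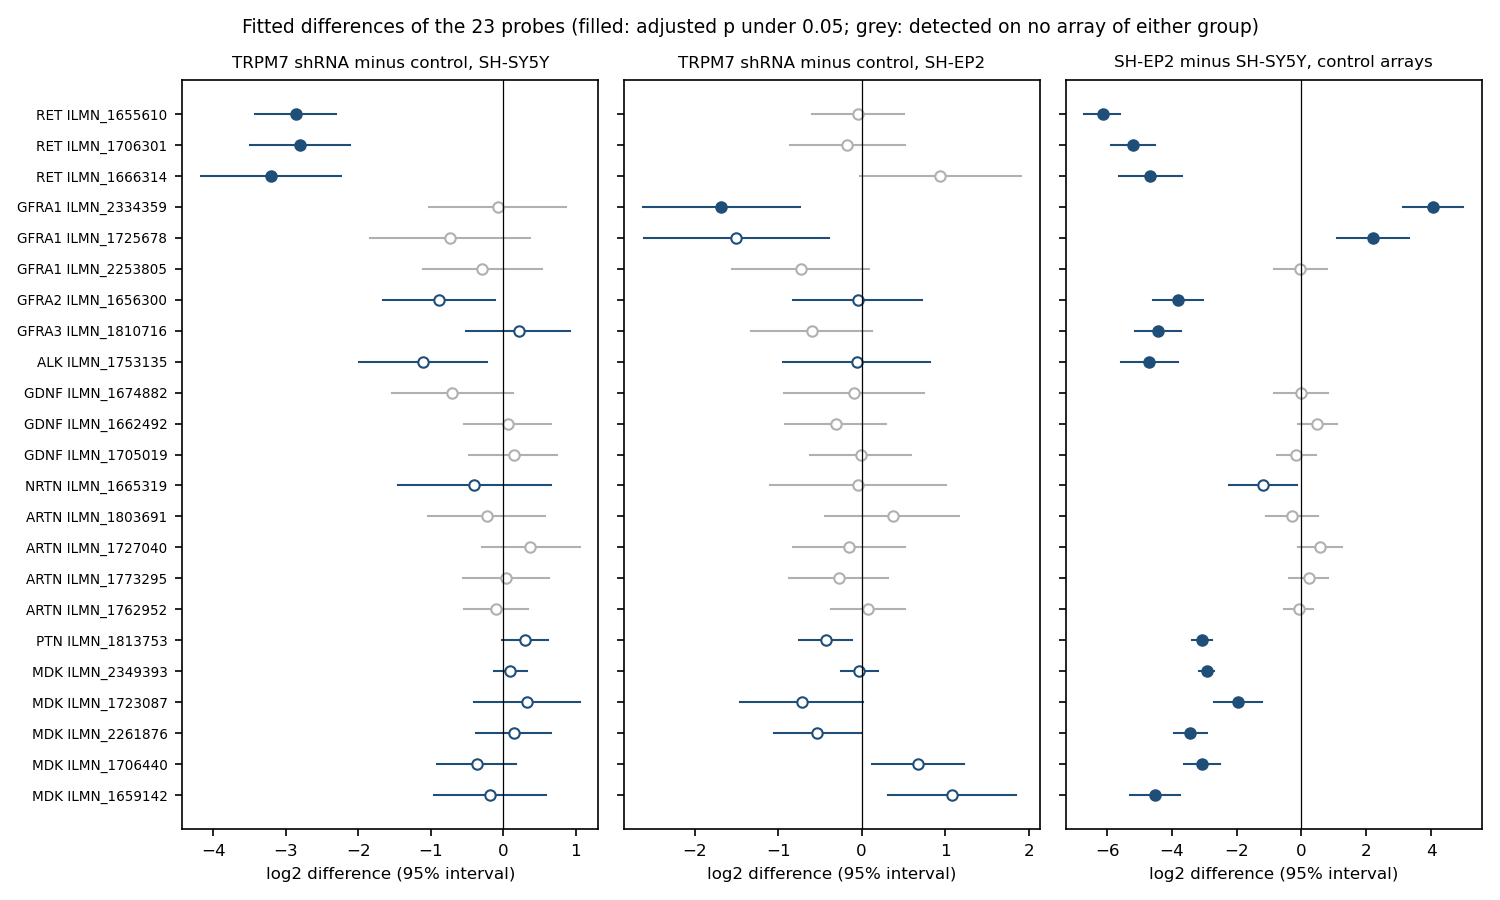
Fitted log2 differences with 95% intervals of the 23 probes (rows), for TRPM7 shRNA minus control in SH-SY5Y and in SH-EP2 and for SH-EP2 minus SH-SY5Y among control arrays. Filled points passed an adjusted p under 0.05 in limma and grey marks probes detected on no array of either group. The filled points are the 3 RET probes in SH-SY5Y, 1 GFRA1 probe in SH-EP2 and 14 probes between the lines.

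Over the 23 probes, 3 were called upon knockdown in SH-SY5Y, all lower and all RET, against 2.11% of all probes called and 1.30% called lower. That split over all probes, 382 higher and 617 lower, turned to 553 higher and 284 lower with median scaling, under which the 3 RET probes were still called lower. Among probes detected on all 4 SH-SY5Y arrays, 3.36% were called lower. In SH-EP2 1 member probe was called, GFRA1, against 3.02% of all probes called and 1.54% called lower. The arrays of the 2 groups did not overlap for 13 of the 23 probes in SH-SY5Y (10 lower, 3 higher) and for 11 in SH-EP2 (7 lower, 4 higher), while 39.1% and 42.9% of all probes did not overlap. These member counts include probes undetected in both groups, whose order is that of background signals. Examples are GDNF ILMN_1674882 (lower) and ARTN ILMN_1727040 (higher) in SH-SY5Y, and GFRA3 (lower) and RET ILMN_1666314 (higher) in SH-EP2. Of the member probes that did not overlap, the test called 3 in SH-SY5Y and 1 in SH-EP2. The median difference of the 23 probes was -0.18 in SH-SY5Y and -0.09 in SH-EP2, against 0.00 and 0.01 over all probes.

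The members differed more between the lines than upon knockdown. Between control arrays 14 of the 23 probes were called, against 26.2% of all probes, and 12 were lower in SH-EP2, against 14.0%. These 12 probes belonged to RET, ALK, GFRA2, GFRA3, PTN and MDK, and the 2 higher ones were GFRA1. RET was at least 48.2-fold lower in SH-EP2 by ILMN_1655610 (adjusted p = 2.22e-13, limma), at least 22.9-fold by ILMN_1706301 and at least 8.04-fold by ILMN_1666314, where "at least" sets the SH-SY5Y level against the dimmest detected signal because RET was undetected in SH-EP2. GFRA3 was at least 11.9-fold lower, and GFRA2 and ALK, each detected on 1 of the 2 SH-EP2 control arrays, were 14.0-fold and 26.0-fold lower. PTN was 8.38-fold lower and MDK 7.64-fold lower by its brightest probe, with -1.96 to -4.52 on the log2 scale for its other probes. GFRA1 was at least 9.20-fold higher in SH-EP2 by ILMN_2334359 (adjusted p = 3.68e-07, limma) and at least 2.87-fold by ILMN_1725678. NRTN, at -1.18, did not pass (adjusted p = 0.10, limma).

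In detection, 7 of the 10 genes had a probe detected on all 4 SH-SY5Y arrays. Of the 23 probes, 4 were detected on all 4 SH-SY5Y arrays and on no SH-EP2 array (2 of RET, and those of GFRA3 and NRTN), a pattern that 1.97% of all probes showed. In SH-SY5Y the detected set was thus RET and ALK with GFRA2, GFRA3, NRTN, PTN and MDK, and on all 4 SH-EP2 arrays it was GFRA1, PTN and MDK.

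The other genes of these pathways were counted from fixed lists, with 1 probe a gene, the brightest. Beside these counts, 2.11% of all probes were called in SH-SY5Y and 3.02% in SH-EP2. Those shares are over all 47322 probes, detected or not, so they are not matched to the lists. Of 8 further receptors, ligands and binding partners of GDNF family signalling, 0 passed in SH-SY5Y at an adjusted p under 0.05 (limma; 1 had an unadjusted p under 0.05), and 2 passed in SH-EP2. There GDF15, the ligand of the RET coreceptor GFRAL, rose by 0.65 (adjusted p = 0.00543), and GAS1, a membrane protein related to the GFRA coreceptors, fell by 1.56 (adjusted p = 1.28e-05). GFRAL itself and GFRA4 were undetected on both groups' arrays in either line. NCAM1, an alternative GDNF receptor, differed by -0.53 in SH-SY5Y and by -0.26 in SH-EP2, with adjusted p of 0.159 and 0.601.

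Of 11 partners of ALK, PTN and MDK, 1 rose in SH-SY5Y, and 3 rose and 1 fell in SH-EP2. SDC2, a syndecan that binds heparin-binding growth factors, rose by 0.63 in SH-SY5Y (adjusted p = 0.0071, limma) and fell by 1.41 in SH-EP2 (adjusted p = 9.11e-07), and the difference between these effects was not tested. The syndecans SDC1 and SDC4 both rose by 0.86 in SH-EP2 (adjusted p = 7.58e-06 and 0.0424), and NCL (nucleolin) rose by 0.31 (adjusted p = 0.0364). FAM150B, now ALKAL2, is an activating ligand of ALK. It had means of 4.12 in SH-SY5Y controls and 3.85 after knockdown, a difference of -0.27 (adjusted p = 0.917, limma), and was undetected in SH-EP2, at least 1.85-fold lower there (adjusted p = 0.00414). PTPRZ1, a receptor of PTN, was undetected in all 4 groups.

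Of 29 adaptors and proximal effectors, 0 passed in SH-SY5Y (limma; 7 had an unadjusted p under 0.05) and 1 rose in SH-EP2, CBLB, an E3 ubiquitin ligase, by 0.67 (adjusted p = 0.0203, limma). Of 18 genes read as ERK output or feedback, 1 fell in SH-SY5Y and 0 rose (limma, with 7 at an unadjusted p under 0.05). The gene that fell was the immediate-early gene EGR1, at -1.39 (SE 0.12, adjusted p = 7e-07, limma). The feedback regulators SPRY2 and DUSP6 differed by -0.08 and -0.22 (adjusted p = 0.866 and 0.601). Larger differences that did not pass were -0.75 for DUSP5 and 1.76 for ETV1, the latter undetected in controls (adjusted p = 0.0981 and 0.0583, limma). In SH-EP2, where RET was undetected, 6 rose and 0 fell. Among them were the ETS factor ETV4, by 2.02, IER3, by 1.85, PHLDA1, by 1.44, the phosphatase DUSP6, by 1.12, and SPRY2, by 0.90, with adjusted p from 7.05e-06 to 0.00017 (limma). The median of the list was -0.15 in SH-SY5Y and 0.30 in SH-EP2, against 0.00 and 0.01 over all probes, and the difference between the lines was not tested for these genes.

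**Figure D3:**
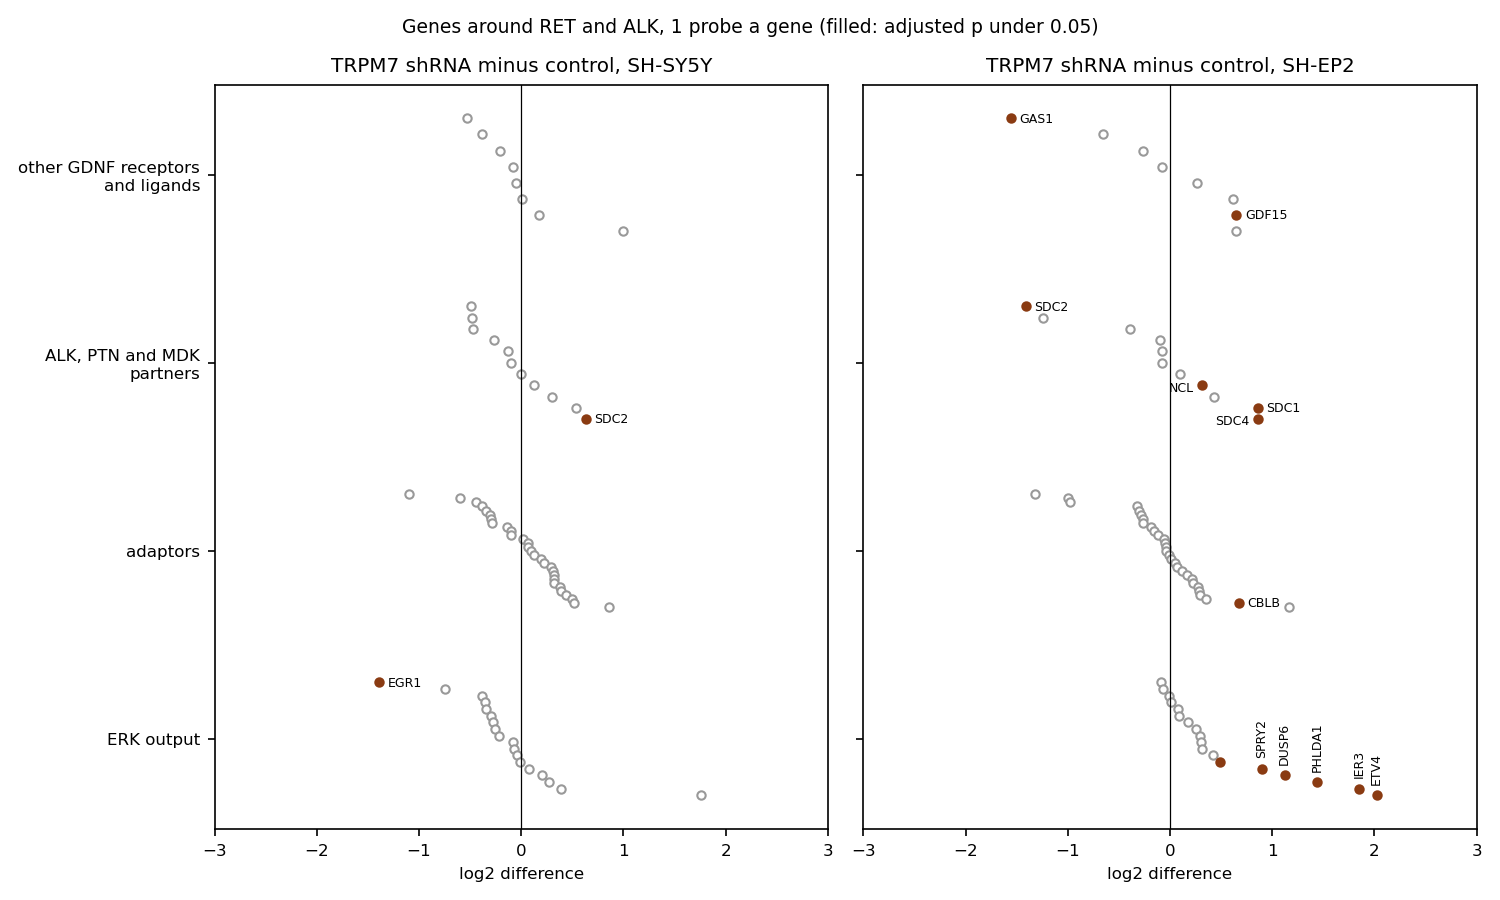
Log2 differences (x axis, TRPM7 shRNA minus control) of the genes of 4 lists around RET and ALK in each line, 1 probe a gene, with filled points at an adjusted p under 0.05. EGR1 at -1.39 stands lowest among the called genes in SH-SY5Y, and in SH-EP2 6 called ERK output genes lie above 0.

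Some markers of cell state also moved upon the knockdown that lowered RET. Over all probes, detected or not, 2.11% were called in SH-SY5Y and 3.02% in SH-EP2. Of 13 noradrenergic markers 3 fell in SH-SY5Y, namely DBH, the enzyme that makes noradrenaline (log2 difference -1.20), STMN2 (-0.58) and ISL1, a LIM homeodomain factor (-0.45), and 0 rose. The summed signal of the list was 38500 to 39300 on the control arrays and 27500 to 29500 on the knockdown arrays. In either group 12 of the 13 genes were detected. The sum adds linear signals, so bright genes weigh most. STMN2, ISL1 and DBH were the brightest in controls (means 13.48, 12.68 and 12.62), so the sum is no separate sign of a fall across the list. The median difference of the list was -0.24, and most of its members did not pass, among them HAND2 (-0.01, adjusted p = 0.991), CHGA (-0.02, adjusted p = 0.985) and CHGB (0.08, adjusted p = 0.95). Of 12 mesenchymal markers 2 fell, VIM (-0.30) and SNAI2 (-2.77), and the median difference of the list was 0.08. Its summed signals were 17500 to 19000 in controls and 16300 on both knockdown arrays. VIM, the brightest of the list with means of 13.68 and 13.38, weighs most in that sum, so the sum does not show a fall of the list. Of 8 Schwann cell and glial markers 0 passed in limma, also unadjusted, with summed signals of 49.4 to 56.0 in controls and 55.9 to 69.1 after knockdown. In SH-EP2, beside the fall of GFRA1, 1 mesenchymal marker rose and 3 fell, with summed signals of 37500 to 39600 in controls and 36800 to 37100 after knockdown, 1 noradrenergic marker rose and 1 fell, another, CHGA, passed between groups in which it was undetected, and 0 glial markers passed. The part of these shifts in the values of RET and GFRA1 was not tested.

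The probes whose 8 values followed the RET probe most closely were those of C20orf100 (now TOX2, Pearson r = 0.9976), SIGIRR (0.9936), PDZRN3 (0.9933), ZNF423 (0.991) and TTF1 (0.991), out of 22453 candidates. PDZRN3 had group means of 5.65, 4.46, 2.31 and 2.24, and ZNF423 of 6.17, 4.07, 2.07 and 2.00, in the order SH-SY5Y control, SH-SY5Y knockdown, SH-EP2 control and SH-EP2 knockdown. The probes most like ALK were TMEFF1 (r = 0.993), MGC27348, STK38L, CES8 (now CES4A) and, in the fifth place, the RET coreceptor GFRA2 (r = 0.9909). The 8 arrays fall into 2 lines that differ in most of these genes, and 353 candidates for RET and 847 for ALK had an r above 0.95, so that the split of the arrays by line enters every such value. These likenesses are descriptions without a test.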

How the data were processed

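The authors prepared biotinylated cRNA from total RNA, hybridized it to 8 Illumina HumanHT-12 v4 arrays and extracted signals in GenomeStudio (2011.1). They deposited a linear signal intensity and a detection p-value for each of 47322 probes, not normalized. The methods name Robust-Multi-Array normalization and no test. Here the RMA background model was applied to the intensities, followed by quantile normalization across all arrays and log2, and no probe was filtered out. The 4 groups, taken from the labels, were fitted in 1 model with limma (3.58.1, R 4.3.3), eBayes with an intensity trend, and p-values were adjusted over all probes by Benjamini-Hochberg. The background correction stretches differences of dim probes. Genes of the pathway and marker lists were represented by their brightest probe, and named where they passed, did not overlap between groups and were detected in the brighter group, at most 5 a list and comparison. A few genes that did not pass were named for their known role, or for the size of their difference, after their values were seen. Members and lists were chosen with earlier results of these data known. Results on some lineage regulators are not reported here. The number of arrays limits the precision. Alternatives were other background corrections, scaling, filter, variance models, each line alone, a replicate block and leaving out each array. Same-numbered arrays did not deviate together (r = -0.111 in SH-SY5Y and -0.00447 in SH-EP2 over 14577 probes), so that replicate numbers were not used to pair samples.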

Additional observations from a re-analysis of the deposited data

Results flagged for a closer look

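The test of the difference in knockdown effect between the lines called all 3 RET probes (limma). The effect in SH-EP2 minus that in SH-SY5Y was 2.82 for ILMN_1655610 (adjusted p = 0.000199), 4.15 for ILMN_1666314 (adjusted p = 0.00111) and 2.62 for ILMN_1706301 (adjusted p = 0.0034), all on the log2 scale. RET was undetected in both SH-EP2 groups. These values thus compare a measured fall in SH-SY5Y with a difference between background signals in SH-EP2, where no fall could be seen. The test therefore cannot tell whether the RET response depends on the line.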

How the results depend on the processing

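All 3 RET probes kept their direction in SH-SY5Y under every alternative, but the size of the dimmer probes' falls depended on the processing. ILMN_1706301 ranged from -2.84 to -1.19 and ILMN_1666314 from -3.35 to -0.67. ILMN_1655610 was called in all 18, from -2.91 to -1.69, the smallest without background correction, and the other probes lost their call in the per-probe test alone (adjusted p = 0.0619 and 0.0775). The test of the difference between lines called RET except in the per-probe test, and on ILMN_1706301 also without the intensity trend. Of 833 member values under 18 alternatives, 791 kept direction and side of the threshold, 19 gained a call, 15 lost one and 8 changed sign, all 8 when an array was left out. Those ranges were -0.64 to 0.28 (MDK ILMN_1659142), -0.06 to 0.34 (MDK ILMN_2261876) and -0.03 to 0.22 (MDK ILMN_2349393) in SH-SY5Y, -1.51 to 0.06 (MDK ILMN_1723087) and -0.24 to 0.19 (MDK ILMN_2349393) in SH-EP2, and -0.33 to 0.09 (MDK ILMN_2349393) and -0.16 to 0.87 (NRTN) for the difference between lines. The cause was not tested.

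Member probes called in SH-SY5Y numbered 3, but 5 with normexp, 5 without background correction, 5 in each line alone and 1 in the per-probe test. In SH-EP2 the count of 1 became 0 with median scaling, without the intensity trend and in the per-probe test (5, 7 and 4 probes at an unadjusted p under 0.05). The GFRA1 call was lost whenever an SH-EP2 array was left out, which leaves 1 array in its group. For the difference between lines the count of 3 became 5 with normexp, 6 without background correction and 0 in the per-probe test (5 at an unadjusted p under 0.05), and ranged from 3 to 5 when an array was left out. Over all probes, 999 were called in SH-SY5Y, 64 without the trend and 50 in the per-probe test, with 622 to 958 when an array was left out. In SH-EP2 1429 were called, 100 without the trend, 103 in the per-probe test and 2587 with the line alone, with 675 to 1596. For the difference between lines 662 were called, 23, 15, 1153 with normexp and 1248 without background correction, with 399 to 650. With a replicate block 801 and 1136 probes and 3 and 1 member probes were called in SH-SY5Y and SH-EP2, and with the numbers of SH-SY5Y crossed 1420 and 4.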
